A study of Mus musculus with 272 samples.

Results

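The chromatin of 8 genes of the premyogenic programme was described in mouse muscle stem cells (MuSCs), the DNA-binding factors *Six2* and *Six4*, the cofactors *Eya1*, *Eya2*, *Eya3* and *Eya4*, and the homeobox genes *Lbx1* and *Pitx3*. The members were taken by name from 21938 protein-coding genes of the GENCODE M21 annotation of mm10, and all 8 were found there. By the isolation method of the paper, MuSCs were sorted as GFP+ cells from hindlimb muscle of Pax7Cas9 mice. In these mice Pax7Cre switches on a Cas9-EGFP knockin at *Rosa26*. On this description every library carried Cre and Cas9 and no library lacked them. The paper's ATAC-seq and ChIP-seq methods themselves name no mouse line. Open DNA was measured by ATAC-Seq. ChIP-seq gave 3 histone marks, namely H3K4me3, found at promoters in use or ready for use, H3K27ac, found at promoters and enhancers that are active, and H3K27me3, laid down by Polycomb. There were 2 replicates of each, and all 8 libraries belonged to 1 condition, so that no contrast between conditions, no test and no p-value between groups was possible. The labels of these libraries gave no age, strain background or number of animals, nor whether replicates came from separate animals. Cells were measured in bulk, and a mark on fewer cells cannot be told apart from a weaker mark on every cell.

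*Six2* and *Six4* encode homeodomain transcription factors of the sine oculis family, which bind the MEF3 motif in muscle promoters. They recruit EYA proteins, co-activators that also carry a phosphatase domain. Together with PAX and DACH proteins they form a network upstream of the myogenic regulatory factors in the embryo, where *Lbx1* marks the muscle precursors that migrate into the limb and *Pitx3* is switched on as myogenic cells differentiate.

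All members were open and carried H3K4me3 in both replicates, all except *Eya2* also carried H3K27ac, and *Six2* alone was listed with H3K27me3 in both. A promoter was counted as marked where a peak came within 3 kb of a start site of transcription in the annotation. ATAC-Seq peaks were present in both replicates at 8 of 8 members and at 67.8% of protein-coding genes. H3K4me3 was present in both replicates at 8 of 8 members, against 60.8% of protein-coding genes. H3K27ac was listed in both replicates at 7 of 8 members and at 46.6% of protein-coding genes. The combination of all 3 features in both replicates was found at the same 7 members and at 46.2% of protein-coding genes. *Eya2* was the 1 member with H3K4me3 and without H3K27ac in either replicate, a state shared with 11.3% of protein-coding genes. H3K27me3 was listed in both replicates at 1 member and at 4.81% of protein-coding genes. With 8 genes, these counts stand beside the background as a description and no difference from it was tested.

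Sequences are shown for the promoters on which the comparison turns. *Six2* was the 1 member listed with H3K4me3, H3K27ac and H3K27me3 in both replicates. Its H3K27me3 peaks lay outside the sequence shown, 2.133 and 2.827 kb downstream of the nearest start in replicates 1 and 2. *Eya3* was the member with the strongest ATAC-Seq promoter peak, and *Pitx3* the 1 member whose own RefSeq promoter held an E-box. They are RefSeq promoters of GRCm38.p6 (mm10), 250 bases before to 50 bases after the RefSeq start, written 5′ to 3′. Capitals mark matches to CAGCTG, an E-box of the kind bound by myogenic factors. RefSeq promoters were matched for 5 of 8 members (*Six2*, *Six4*, *Eya3*, *Eya4* and *Pitx3*) and not for *Eya1*, *Eya2* and *Lbx1*.
*Six2* promoter, chr17:85688205-85688504, minus strand: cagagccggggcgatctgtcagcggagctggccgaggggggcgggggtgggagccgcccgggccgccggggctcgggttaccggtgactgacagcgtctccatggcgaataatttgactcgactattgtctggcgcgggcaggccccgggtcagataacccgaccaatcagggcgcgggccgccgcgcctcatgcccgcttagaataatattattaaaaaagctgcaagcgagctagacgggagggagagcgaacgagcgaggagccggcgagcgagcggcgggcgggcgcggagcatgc
*Eya3* promoter, chr4:132638796-132639095, plus strand: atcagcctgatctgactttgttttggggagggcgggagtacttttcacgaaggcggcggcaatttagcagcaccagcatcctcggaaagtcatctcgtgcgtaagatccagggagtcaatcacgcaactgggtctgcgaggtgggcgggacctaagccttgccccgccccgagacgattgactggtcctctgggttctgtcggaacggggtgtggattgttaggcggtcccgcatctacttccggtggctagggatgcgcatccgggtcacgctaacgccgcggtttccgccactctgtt
*Pitx3* promoter, chr19:46148276-46148575, minus strand: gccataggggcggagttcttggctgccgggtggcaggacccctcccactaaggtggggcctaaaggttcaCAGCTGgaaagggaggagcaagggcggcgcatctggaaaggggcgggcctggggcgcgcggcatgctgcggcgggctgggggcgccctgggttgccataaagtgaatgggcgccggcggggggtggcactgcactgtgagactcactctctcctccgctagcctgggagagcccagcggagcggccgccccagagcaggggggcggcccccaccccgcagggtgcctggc
All were rich in CpG, with 37 CpG in *Six2*, 25 in *Eya3* and 20 in *Pitx3*, and the 7 promoters of the 5 members ranged from 15 to 37 against a median of 7 over 32851 RefSeq promoters. Both strands were searched for TCAGGTT (the MEF3 core), CAGCTG and TGANTCA (the AP-1 motif), of which TGANTCA can share its last 3 letters with the start of the MEF3 core. The E-box was found once, in *Pitx3*, and in 16.3% of all RefSeq promoters. TCAGGTT was found once, on the plus strand, in 1 of the 2 overlapping *Six4* promoters (chr12:73113196-73113495), and in 4.07% of all RefSeq promoters. TGANTCA was found in no member promoter and in 7.81% of all. A match is a description of the letters and not a bound site.

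*Six2*, best known for keeping the progenitors of the kidney undifferentiated, lies at chr17:85684277-85688274 on the minus strand. Its ATAC-Seq promoter peak had a fold enrichment at the summit, over the background estimated by the peak caller, of 17.9 and 13.02 in replicates 1 and 2, in the top 6.43% and 11.8% of all peaks of the list. Its H3K4me3 peak had folds of 16.5 and 8.83, and its H3K27ac peak of 6.51 and 4.63. Its ATAC-Seq fold was behind that of *Eya3* in replicate 1 and behind those of *Eya3*, *Eya1* and *Pitx3* in replicate 2, whereas its H3K27ac fold was the lowest of the 7 members that had it in both replicates. The H3K4me3 peak was 3313 and 2703 bp wide and covered the start of the gene.

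*Six4*, which acts redundantly with other family members in embryonic muscle, lies at chr12:73099609-73113456 on the minus strand. Its ATAC-Seq folds were 10.4 and 8.97, its H3K4me3 folds 30.5 and 18.3, and its H3K27ac folds 9.51 and 6.99. By the strongest promoter peak its ATAC-Seq fold was the lowest of the members in both replicates, and its H3K4me3 fold was above that of *Six2* in both. A single H3K4me3 peak of 3394 and 3533 bp and a single H3K27ac peak of 2057 and 1731 bp began at the start and ran into the gene, and 7 and 4 separate ATAC-Seq peaks lay within the stretch of H3K4me3.

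*Eya1*, a cofactor needed with the sine oculis factors for hypaxial muscle, lies at chr1:14168954-14310235 on the minus strand. The ATAC-Seq folds at its promoter were 13.4 and 16.7, the H3K4me3 folds 29.4 and 21.9, and the H3K27ac folds 18.8 and 13.3. H3K27ac was the highest of the members in replicate 1 and next to *Eya3* in replicate 2. The H3K27ac peak was 4732 and 3311 bp wide, the 47th and 101st widest of its list, and the H3K4me3 peak was 4744 and 4236 bp wide.

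*Eya2*, a cofactor that can act with sine oculis and DACH proteins to switch on myogenic genes, lies at chr2:165595032-165771727 on the plus strand and had the weakest H3K4me3 of the members. At its 5′ end the ATAC-Seq folds were 7.49 and 7.09 and the H3K4me3 folds 5.03 and 5.21. The H3K4me3 folds were the lowest of the members in both replicates, with 72.0% and 73.7% of the peaks of the lists at or above them, and the peaks were 535 and 204 bp wide. The strongest ATAC-Seq peak counted as a promoter peak of *Eya2*, with folds of 12.6 and 11.8, lay 164.6 kb into the gene beside the start of a non-coding transcript and carried no other mark.

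*Eya3*, a broadly expressed member of the family, lies at chr4:132638987-132724765 on the plus strand. The promoter shown above had ATAC-Seq folds of 27.5 and 21.3, in the top 1.98% and 1.43% of the lists. The H3K4me3 folds were 31.0 and 22.01 and the H3K27ac folds 13.3 and 15.9. *Eya3* was highest of the members for ATAC-Seq in both replicates, and for H3K4me3 it stood just above *Six4* in replicate 1 and *Eya1* in replicate 2. Its H3K4me3 peak was narrower than the median of all genes in both, at 1483 and 1136 bp.

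*Eya4*, a cofactor whose loss affects the inner ear and the heart, lies at chr10:23102963-23350786 on the minus strand. Its ATAC-Seq folds were 11.3 and 11.7, its H3K4me3 folds 22.7 and 14.7, and its H3K27ac folds 16.1 and 9.49. The H3K27ac peak was 3030 and 2896 bp wide, in the top 1.31% and 0.985% of the lists by width, while its fold was in the top 16.5% and 33.8%.

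*Lbx1*, the homeobox gene of migrating limb muscle precursors, lies at chr19:45232684-45235812 on the minus strand and had the widest H3K4me3 peak of the members. The ATAC-Seq folds were 12.3 and 12.7, with the summits 1.03 and 1.01 kb upstream of the start, the H3K4me3 folds 27.8 and 15.03, and the H3K27ac folds 9.96 and 6.36. The H3K4me3 peak spanned 8596 bp in replicate 1 and 6610 bp in replicate 2, the 16th and 13th widest of their lists, and covered the whole gene in both. In replicate 2 a further H3K4me3 peak of 1479 bp with a fold of 8.62 followed downstream, at 5.167 to 6.645 kb from the 5′ end, so that the marked stretches of both replicates ended near each other. H3K27ac lay over much of the same stretch in separate peaks, 6 in replicate 1 from 1.674 kb upstream to 6.059 kb downstream of the 5′ end and 4 in replicate 2 from 1.619 kb upstream to 4.804 kb downstream, of which the strongest was 2844 and 1212 bp wide.

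*Pitx3*, a homeobox gene that limits oxidative stress in differentiating myogenic cells and is also a gene of lens and dopaminergic neurons, lies at chr19:46135685-46148326 on the minus strand. At its 5′ end the ATAC-Seq peaks over the start had folds of 4.84 and 5.13. A further ATAC-Seq peak in replicate 1, 0.84 to 0.949 kb into the gene, had a fold of 8.46 and overlapped none in replicate 2. The H3K4me3 folds were 19.5 and 17.1, and the H3K27ac folds 9.36 and 7.73. A second coding start 7.343 kb into the gene was more open, with ATAC-Seq folds of 17.7 and 14.7, and had H3K27ac folds of 5.85 and 6.25 and an H3K4me3 fold of 3.14 in replicate 1 with no peak in replicate 2. Openness and H3K4me3 therefore had their highest values at different starts of the gene, in both replicates.

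**Figure D1:**
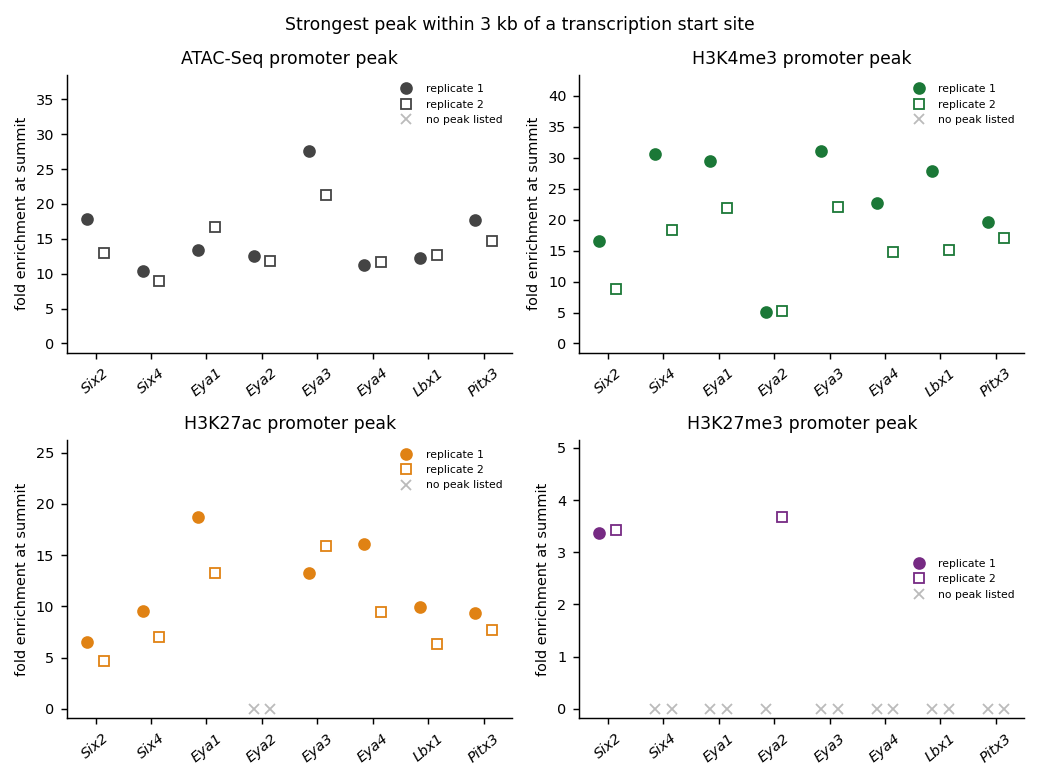
Fold enrichment at the summit of the strongest promoter peak (y axis) of each of the 8 members (x axis), with 1 panel per feature, filled circles for replicate 1, open squares for replicate 2 and grey crosses where no peak was listed. *Eya3* was highest for ATAC-Seq, *Eya2* lowest for H3K4me3 (5.03 and 5.21) and absent for H3K27ac, and H3K27me3 was listed for *Six2* in both replicates and for *Eya2* in replicate 2 only.

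The median fold of the members was near that of all marked genes for ATAC-Seq and H3K4me3 and below it for H3K27ac, and the median width was above it for H3K4me3 and H3K27ac, with no test of these differences. The median H3K4me3 fold of the members was 25.2 and 16.1 in replicates 1 and 2, against 23.9 and 17.6 over all protein-coding genes with such a peak. The median H3K27ac fold of the 7 members with a peak was 9.96 and 7.73, against 13.9 and 11.95, and the median ATAC-Seq fold was 12.98 and 12.9, against 13.3 and 12.2. The median width of the strongest H3K4me3 promoter peak was 3258.5 and 2855.5 bp in the members and 1615 and 1337.5 bp over all genes with a peak. For H3K27ac the median widths were 2057 and 1731 bp against 1159 and 985.5 bp. *Eya2* and *Eya3* were below the H3K4me3 median of all genes in both replicates, and the other 6 members were above it in both.

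**Figure D2:**
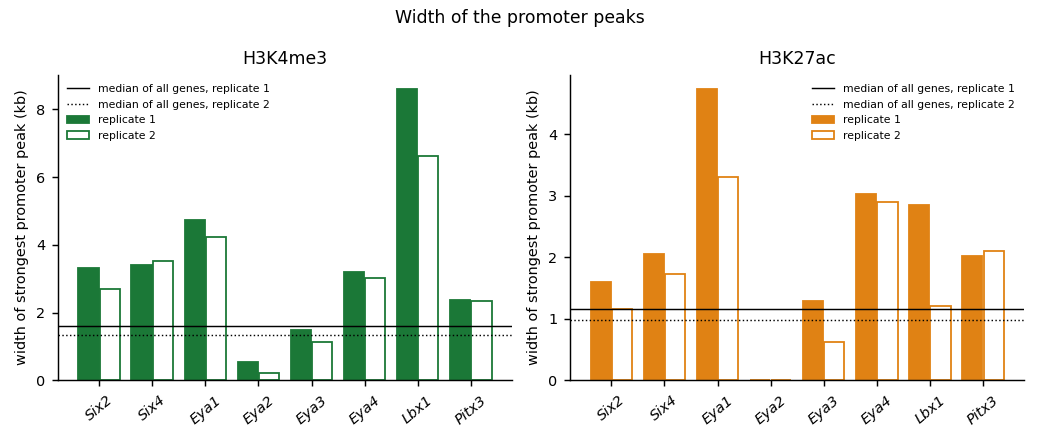
Width in kb (y axis) of the strongest H3K4me3 and H3K27ac promoter peak of each member (x axis), with filled bars for replicate 1 and open bars for replicate 2, and horizontal lines at the median over all protein-coding genes with such a peak (solid for replicate 1, dotted for replicate 2). *Lbx1* had the widest H3K4me3 peak (8596 and 6610 bp) and *Eya1* the widest H3K27ac peak (4732 and 3311 bp).

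Several members have more than 1 start, and the marks lay mainly at the first. Starts within 1 kb of each other were joined, which gave 22 groups of starts over the 8 genes, and 10 of these had H3K4me3 within 1 kb in both replicates. The second coding start of *Eya1*, 5.607 kb into the gene, had ATAC-Seq folds of 10.4 and 9.74 and H3K4me3 folds of 6.32 and 4.80, and no H3K27ac. The coding starts of *Eya1* at 78.743 kb and of *Eya4* at 113.711 kb had no H3K4me3 in either replicate, and each had ATAC-Seq in 1 replicate only (fold 4.93 in replicate 2 for *Eya1*, 5.45 in replicate 1 for *Eya4*). The internal coding start of *Eya2* at 60.266 kb had no peak of any list within 1 kb. In all, 9 of the 22 groups had no peak of any list. These counts of groups have no share over the starts of all genes beside them, as none was computed.

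H3K27me3 was sparse and did not recur at the same positions. In the *Six2* promoter, 1 peak was listed in replicate 1, 2.133 kb downstream of the nearest start, with a fold of 3.38 and a q-value of 0.352. In replicate 2 the promoter peak lay 2.827 kb downstream, with a fold of 3.42 and a q-value of 0.110, and did not overlap that of replicate 1. Both had q-values above 0.05, as these lists were thresholded by p-value and not by q-value, and both lay beyond the 1 kb around the start. Over the gene and the 50 kb either side, *Six2* had 1 peak in replicate 1 and 6 in replicate 2. With 100 kb either side the numbers were 32 and 41. The peaks so added lay more than 50 kb from *Six2*, and whether they belong to another gene was not tested. *Eya2* had no H3K27me3 peak in replicate 1 and 3 in replicate 2, of which 2 lay in the promoter. The stronger, 1.547 to 1.663 kb into the gene, had a fold of 3.68 and a −log10 q of 1.58, and was the 1 H3K27me3 peak of all member loci with a q-value under 0.05. The other, with a fold of 3.42, lay 0.953 kb from the 5′ end. In replicate 2 alone H3K27me3 thus lay in the promoters of 2 members, against 7.64% of protein-coding genes, and in replicate 1 in that of 1 member, against 5.66%. *Pitx3* had 1 peak in replicate 2, with a fold of 2.74 and a q-value of 0.934. *Six4*, *Eya1*, *Eya3*, *Eya4* and *Lbx1* had none within 50 kb in either replicate. The nearest peaks to *Lbx1* lay 75 and 73.4 kb away, and its 100 kb window held 14 and 29 peaks. Of the 1 and 10 peaks listed over all members within 50 kb, 0 overlapped a peak of the other replicate, whereas 68.3% and 34.8% did over the whole lists.

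The genes and the 50 kb either side held 163 and 115 ATAC-Seq peaks, 31 and 28 H3K4me3 peaks and 30 and 25 H3K27ac peaks in replicates 1 and 2. Of the ATAC-Seq peaks, 65.0% and 80.0% overlapped a peak of the other replicate, against 62.9% and 84.7% over the lists. The shares were 71.0% and 96.4% for H3K4me3 (79.0% and 98.7% over the lists) and 63.3% and 84.0% for H3K27ac (64.6% and 91.0%). Per 100 kb, *Lbx1* had the most ATAC-Seq peaks, with 16.5 and 12.6, and *Eya1* the fewest, with 5.39 and 3.32. The median over members was 12.2 and 9.14, against 8.49 and 5.90 over all protein-coding loci of the same construction. For H3K4me3 these medians were 2.53 and 2.52, against 1.63 and 1.48. For H3K27ac they were 1.77 and 2.04, against 1.49 and 1.00. None of these differences was tested. *Eya1* had all its H3K4me3 and H3K27ac peaks at its own promoters, with 3 H3K4me3 peaks and 1 H3K27ac peak in each replicate and none elsewhere in its 241.282 kb window. In the *Six4* window, 4 and 3 of the 5 and 4 H3K4me3 peaks lay at promoters of other annotated genes, among them that of *Mnat1*, a subunit of the CDK-activating kinase, about 10 kb upstream.

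**Figure D3:**
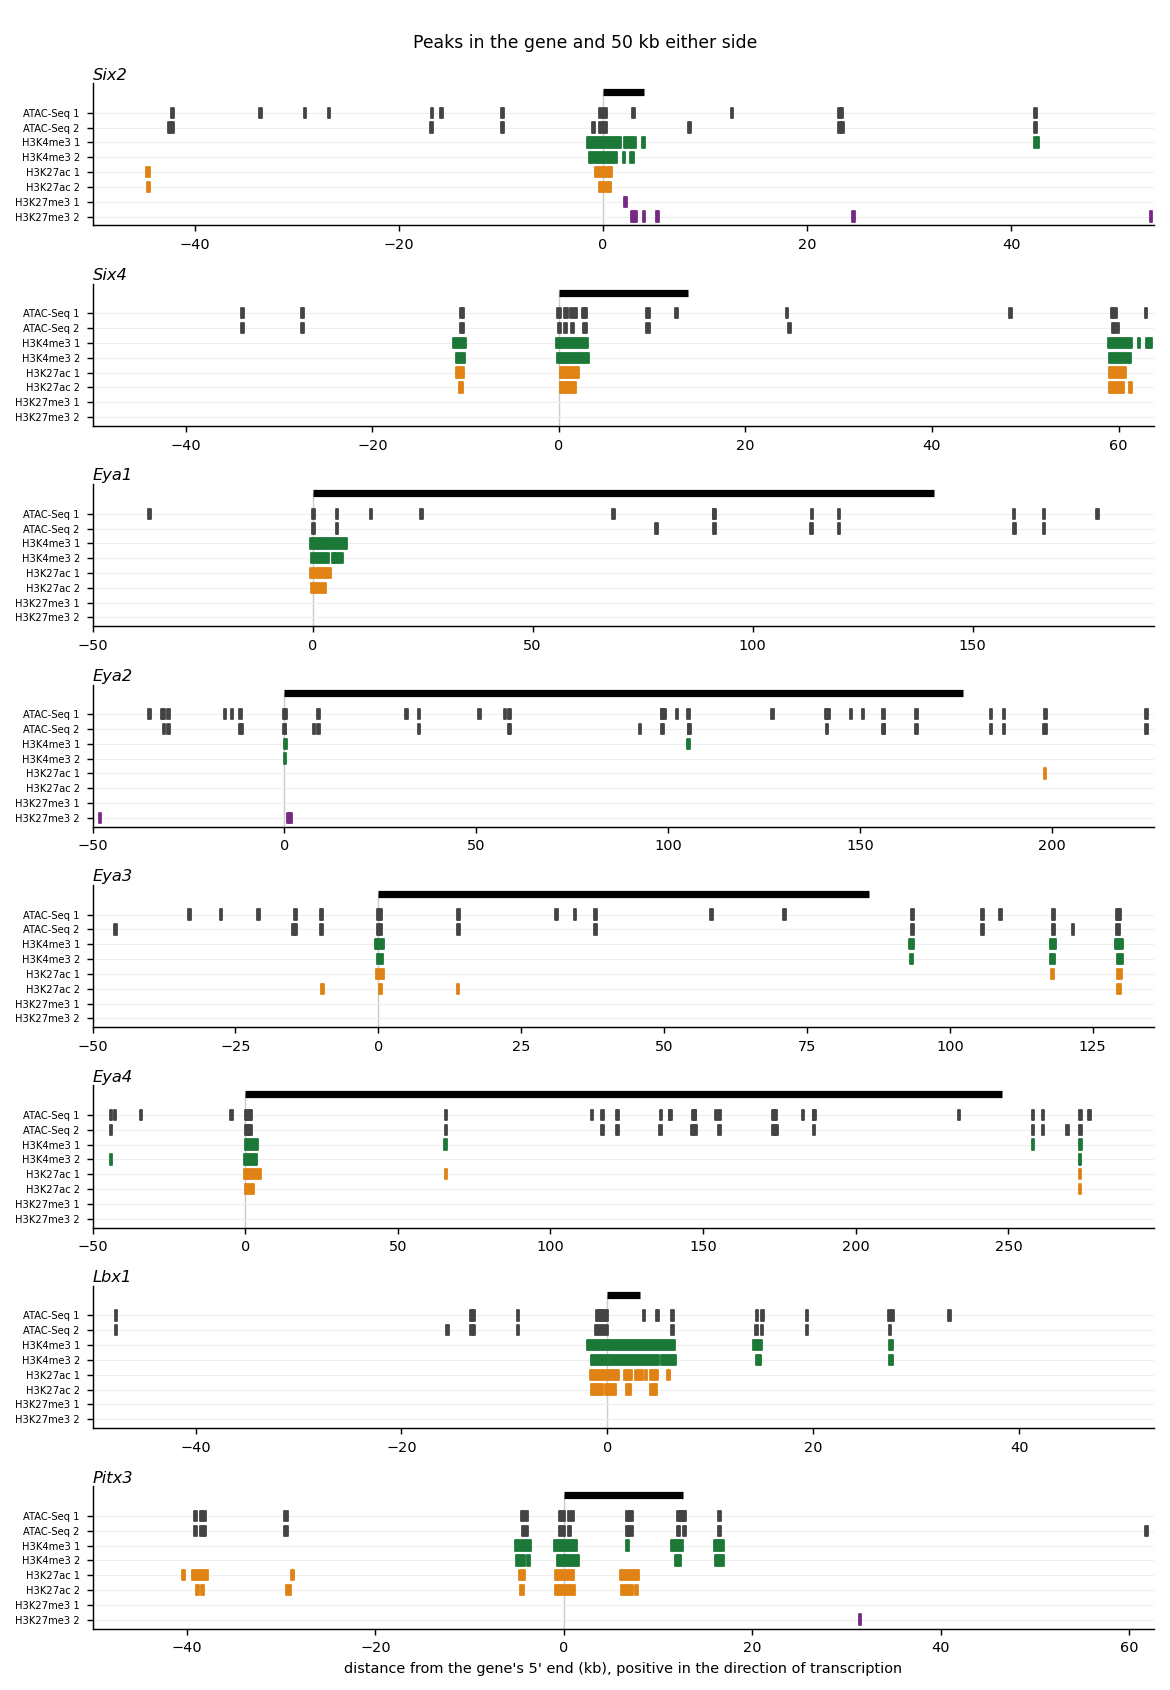
Peaks of the 8 lists (rows, feature and replicate number) in each member gene (black bar) and the 50 kb either side, by distance in kb from the 5′ end of the gene (x axis, positive in the direction of transcription, a different scale in each panel). Narrow peaks are drawn wider than they are so that they can be seen. Both H3K4me3 and H3K27ac were present at the 5′ ends of all genes except *Eya2*. Peaks also lay at promoters of other genes in some windows, as around *Six4* and *Eya3*. At the 5′ end of *Eya2*, H3K4me3 was narrow, and H3K27ac was listed only far downstream in replicate 1.

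Sites away from promoters were described by their openness and marks. An open distal site was an ATAC-Seq peak of replicate 1 that overlapped replicate 2 and lay over 3 kb from every annotated start. The members had 59 such sites, 14 around *Eya2*, 12 around *Eya4*, 9 around *Lbx1*, 6 each around *Six2*, *Eya1* and *Eya3*, 4 around *Pitx3* and 2 around *Six4*. H3K27ac overlapped 4 of the 59 by at least 1 bp in both replicates. This is 6.78%, against 8.23% of 48588 open distal sites of the genome. H3K4me3 was present in both replicates at 4 of the 59, against 5.36% of all. H3K27me3 was present at 0 of the 59, and its share over all open distal sites was not computed.

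The 3 open distal sites of *Pitx3* with H3K27ac lay close together, 38.119, 38.466 and 39.108 kb upstream of its 5′ end and within *Gbf1*, a gene of Golgi traffic. The site at 38.466 kb had ATAC-Seq folds of 20.3 and 22.7, while the 2 neighbours had folds of 5.38 and 5.42, and of 5.39 and 3.96. In replicate 1 a single H3K27ac peak of 1724 bp with a fold of 7.02 covered all of them, and in replicate 2 peaks of 368 and 348 bp had folds of 4.34 and 5.15. The 3 sites are thus counted separately but lay in 1 acetylated stretch in replicate 1. The remaining open site of *Pitx3*, 29.493 kb upstream, had ATAC-Seq folds of 21.9 and 14.2 and H3K27ac, with a fold of 4.05, only in replicate 2.

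The remaining site with H3K27ac in both replicates lay 273.547 kb downstream of the 5′ end of *Eya4*, beyond the end of the gene. Its ATAC-Seq folds were 5.45 and 5.24, its H3K27ac folds 6.96 and 4.91, and its H3K4me3 folds 7.23 and 8.12. It was the 1 site of the 59 with both marks in both replicates. Within *Eya4*, an intronic site at 65.755 kb had ATAC-Seq folds of 9.87 and 4.93, with H3K27ac (fold 4.75) and H3K4me3 (fold 3.78) in replicate 1 and neither in replicate 2.

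The most open distal site of all 59 lay in an intron of *Eya3*, 13.993 kb from the 5′ end, with ATAC-Seq folds of 24.4 and 26.3. In replicate 2 this was above the fold of the *Eya3* promoter itself. H3K27ac was listed there in replicate 2, with a fold of 5.52, and not in replicate 1. The 14 sites of *Eya2* overlapped no H3K27ac peak in either replicate. In replicate 1 an H3K27ac peak with a fold of 4.22 ended just short of the *Eya2* site at 198.313 kb. The highest ATAC-Seq folds among the 14 were at 224.641 kb from the 5′ end within *Zmynd8* in replicate 1 (12.01, and 9.91 in replicate 2) and at 31.382 kb upstream in replicate 2 (10.5, and 8.76 in replicate 1). Around *Lbx1*, 3 open sites downstream of the gene had H3K4me3 in both replicates, and none had H3K27ac in either. The one at 6.305 kb from the 5′ end lay, in replicate 1, inside the wide H3K4me3 peak of the promoter. *Six2* had an H3K27ac peak 44.6 kb upstream in both replicates, with folds of 6.84 and 5.86, where no ATAC-Seq peak was listed in either.

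**Figure D4:**
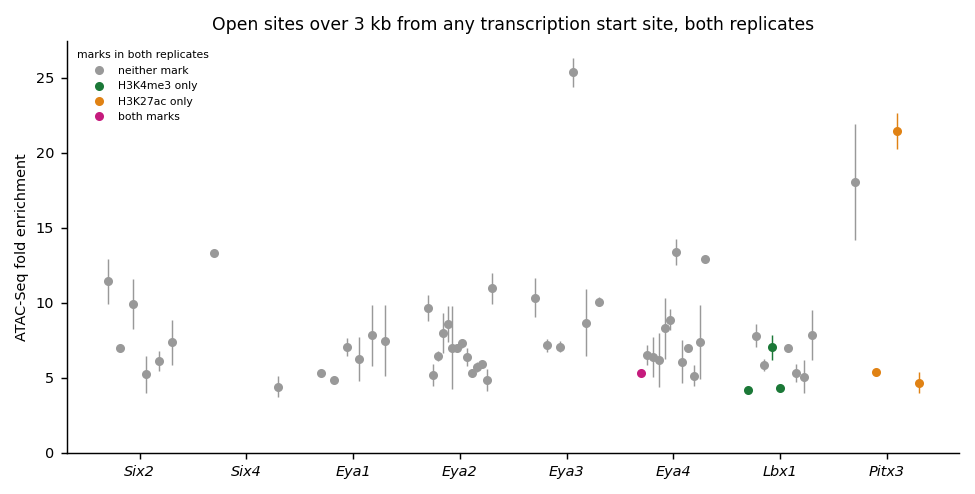
ATAC-Seq fold enrichment (y axis) of the 59 open distal sites by member (x axis, sites of a member in order of position), with points at the mean of the 2 replicates, lines from 1 replicate to the other, and colours for marks present in both replicates. The *Eya3* site at 24.4 and 26.3 stood highest and had neither mark in both replicates, and the *Pitx3* site at 20.3 and 22.7 had H3K27ac in both.

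Windows of 201 bases around the summits are shown for the 2 distal sites with the highest mean ATAC-Seq fold of the replicates, of *Eya3* and *Pitx3* (in replicate 1 the *Pitx3* site at 29.493 kb stood above the one shown), and for the 3 distinct stretches with the MEF3 core, written on the plus strand of GRCm38.p6 (mm10). Capitals mark matches to the MEF3 core, the E-box and the AP-1 motif as spelled out above, on either strand.
*Eya3* intron at 13.993 kb, chr4:132652880-132653080, plus strand: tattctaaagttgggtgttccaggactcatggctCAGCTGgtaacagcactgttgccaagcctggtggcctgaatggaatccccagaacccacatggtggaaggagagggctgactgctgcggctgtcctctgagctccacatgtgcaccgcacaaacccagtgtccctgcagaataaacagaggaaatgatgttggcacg
*Pitx3* upstream at 38.466 kb, chr19:46186692-46186892, plus strand: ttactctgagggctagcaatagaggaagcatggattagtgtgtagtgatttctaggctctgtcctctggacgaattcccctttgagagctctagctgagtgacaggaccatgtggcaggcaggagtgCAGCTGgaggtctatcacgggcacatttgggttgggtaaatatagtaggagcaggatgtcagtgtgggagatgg
*Eya2* intron at 98.429 kb, chr2:165693361-165693561, plus strand: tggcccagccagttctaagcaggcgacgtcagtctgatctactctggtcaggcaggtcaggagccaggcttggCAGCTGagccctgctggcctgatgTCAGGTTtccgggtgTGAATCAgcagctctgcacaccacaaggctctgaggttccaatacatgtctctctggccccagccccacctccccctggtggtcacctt
*Eya3* upstream at 10.037 kb, chr4:132628850-132629050, plus strand: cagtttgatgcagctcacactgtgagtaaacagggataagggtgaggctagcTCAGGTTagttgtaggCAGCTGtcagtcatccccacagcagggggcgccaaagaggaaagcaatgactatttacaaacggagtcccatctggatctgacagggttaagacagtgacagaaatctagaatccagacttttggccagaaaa
*Eya4* intron at 146.744 kb, chr10:23203942-23204142, plus strand: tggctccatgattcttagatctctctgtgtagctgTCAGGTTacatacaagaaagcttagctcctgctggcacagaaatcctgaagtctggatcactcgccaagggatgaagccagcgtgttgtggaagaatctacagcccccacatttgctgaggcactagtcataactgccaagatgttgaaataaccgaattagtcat
The first pair each held 1 CAGCTG and no TCAGGTT. The *Eya2* window, with ATAC-Seq folds of 7.41 and 9.79, held all 3 motifs, and the *Eya3* window at 10.037 kb, with folds of 7.60 and 6.73, held TCAGGTT and CAGCTG. The *Eya4* window, with folds of 12.5 and 14.2, held TCAGGTT alone. None of these 3 sites had H3K27ac in either replicate.

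Over all summits of replicate 1 in the member loci, TCAGGTT was found in 10 of 163 windows (6.13%), against 2.36% of 140716 windows of the genome. Among open distal sites it was found in 4 of 59 (6.78%), against 2.27% of all, and 2 of the 4 windows are neighbours in *Eya2* that share 1 match, which leaves 3 distinct matches. CAGCTG was found in 22 of 59 (37.3%), against 31.95% of all, and TGANTCA in 14 of 59 (23.7%), against 26.5%. These shares were not compared by a test, and windows of neighbouring summits overlap.

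Other genes of the same pathway were counted in the same way. Of *Six3*, *Six5*, *Six6*, *Dach1*, *Dach2*, *Pax3* and *Pax7*, ATAC-Seq and H3K4me3 were listed in both replicates at 6 of 7 (not *Six6*). H3K27ac was listed at 2 of 7, *Six5* and *Pax7*, the latter the marker gene of MuSCs. H3K27me3 was listed at 3 of 7, *Six3*, *Six6* and *Pax3*. Among 12 further genes of limb precursors and of the myogenic factors, ATAC-Seq was listed at 11, H3K4me3 at 10, H3K27ac at 6 (*Met*, *Gab1*, *Cxcr4*, *Myf5*, *Myod1* and *Myf6*) and H3K27me3 at 3 (*Msx1*, *Pitx1* and *Lbx2*). *Lbx1* and its relative *Lbx2* thus were listed with different marks, H3K27ac and H3K4me3 for the first and H3K27me3 for the second.

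Likeness was taken as the smallest Euclidean distance between promoter folds over the 8 libraries, on the log2(fold + 1) scale, among 26 other genes of the members and these lists. Each fold was that of the strongest promoter peak at any start. For *Eya2* the ATAC-Seq folds were thus 12.6 and 11.8 from inside the gene, against 7.49 and 7.09 at its 5′ end. For *Pitx3* they were 17.7 and 14.7 from its second coding start, whereas H3K4me3 came from the first. Distances to and from these genes therefore mix starts, and distances at the 5′ ends alone were not computed. *Six4* and *Lbx1* were nearest to each other, at 0.608. *Eya1* was nearest to *Met*, the receptor of migrating precursors, at 0.649, and *Eya4* to *Pax7* at 0.692. *Pitx3* was nearest to *Lbx1* at 0.784 and *Eya3* to *Eya1* at 1.17. *Eya2* was nearest to *Dach2* at 2.28 and *Six2* to *Pitx3* at 3.26, distances that rest mostly on the weak H3K27me3 peaks described above. Over the 6 libraries without H3K27me3, a choice made after seeing the data, *Eya2* lay at 0.501 from *Dach2*, the smallest distance of any member, and *Six2* at 1.21 from *Pitx3*, while the nearest gene and distance of the other 6 members did not change. The distances describe these 8 libraries, and the folds of a library share its depth.

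The label of the cells was set against marker genes. H3K27ac was listed in both replicates at 6 of 7 MuSC markers (not *Calcr*) and at 1 of 5 markers each of fibro-adipogenic cells (*Dpt*), endothelial cells (*Tek*), blood cells (*Cd68*) and myofibres (*Myh1*). H3K4me3 was listed at 7 of 7 MuSC markers and at 2 of 5 of each other list. ATAC-Seq was listed at all 7 MuSC markers, at 3 of 5 fibro-adipogenic, 5 of 5 endothelial, 3 of 5 blood and 4 of 5 myofibre markers. The part of other cells in the peaks of the members was not tested. The depth behind the peaks is unknown, and a promoter or site with no listed peak is one where none was called in that library. The ATAC-Seq lists held 140937 and 94574 peaks, the H3K4me3 lists 20519 and 18006, the H3K27ac lists 24217 and 18589, and the H3K27me3 lists 6080 and 10485.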

How the data were processed

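Peak lists of 8 of 272 samples were used, and the ChIP inputs and remaining samples were not analysed here. The authors trimmed reads (Trim Galore 0.6.10), aligned them to mm10 (BWA 0.7.17-r1188), filtered out duplicates, poor alignments and the ENCODE blacklist, and called peaks per library with MACS2 2.2.6. ATAC-Seq alignments were shifted to allow for the Tn5 insertion (deepTools 3.5.5). Whether inputs served as controls in calling is not given in the sources used here. The deposited fold is the authors' ratio at the summit over the background, and the deposited p-value and q-value are on the −log10 scale. The authors' score equals 10 times −log10 p in the deposited H3K27me3 lists and 10 times −log10 q in nearly all peaks of the others. Folds were read within a list only, since depth is unknown and no interval could be given.

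Peaks on 21 assembled chromosomes were joined to GENCODE M21 (141730 transcripts) at an overlap of at least 1 bp. The genes named are the members, the network, limb and marker lists, and genes whose promoter or body holds a peak described. The members and lists were chosen with earlier results of these data known. Counting of overlaps was tested on 4000 simulated intervals, with 38.5% planted and 38.5% recovered. Software was Python 3.11.15 with pandas 2.3.3, numpy 2.4.6, matplotlib 3.10.9 and pysam 0.24.0, and samtools 1.23.1.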

Additional observations from a re-analysis of the deposited data

How the results depend on the processing

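No paired analysis was possible because the results come from no test. Of 53 alternative values over 9 results, 38 were classed as similar to the reported value and 15 as moved. The similar class was broad. It held 105.5 ATAC-Seq peaks with windows of 20 kb, instead of 139. It also held 6 of 72 and 6 of 107 open distal sites with H3K27ac without replicate 1 and without replicate 2, instead of 4 of 59. With both replicates required, the counts of members with ATAC-Seq (8), H3K4me3 (8) and H3K27ac (7) were the same under a promoter of 1 kb, a −log10 q of at least 5, a q of at most 0.05, a summit inside the promoter, and with either replicate alone. The count with H3K27me3 fell from 1 to 0 with 1 kb promoters, with a −log10 q of at least 5 and with a q of at most 0.05, and was 1 to 2 with either replicate left out. Windows of 100 kb either side held a mean of 218.5 ATAC-Seq peaks instead of 139, 48 H3K4me3 peaks instead of 29.5, 43 H3K27ac peaks instead of 27.5 and 60 H3K27me3 peaks instead of 5.5, and windows of 20 kb held 17 H3K27ac peaks. The H3K27me3 mean was 0 at a −log10 q of at least 5 and 0.5 at a q of at most 0.05, and 1 without replicate 2 and 10 without replicate 1. Open distal sites with H3K27ac numbered 2 of 53 at a −log10 q of at least 5 and 2 of 59 where 50% of the ATAC-Seq peak had to be covered, instead of 4 of 59. The wider windows hold more peaks by construction, and the cause of the other changes was not tested. The q thresholds remove the weak H3K27me3 peaks, so that the Polycomb listing of *Six2* rests on peaks that no such threshold keeps.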
